A study of Oryza sativa with 36 samples.

Results

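SS1, SS2 and GBSS-I, 3 starch synthase genes of rice, were followed in seedling leaves during chilling stress and recovery. Their members were every array probe set whose gene symbol or synonym in the probe annotation is SS1, SS2 or GBSS-I, a leading Os being dropped: 10 of the 57258 probe sets of the table, 1 for SS1, 3 for SS2 and 6 for GBSS-I. A probe set is a group of short probes that reports 1 intensity per array. Within a gene the probe sets are lettered here from the brightest, as SS2 A to C and GBSS-I A to F, and the plots give the array's own identifier of each. In the rice gene table, SS1 (LOC9269493) is also listed as SSI, SS2 (LOC4330709) as SSII-2, and GBSS-I (LOC4340018) as the waxy gene, Wx. At its brightest probe set, each of the 3 genes was called lower in IR29 at each chilling time and in recovery. In LTH the same probe sets gave fewer calls. Fewer calls are not a tested difference: for GBSS-I the responses of the genotypes were called different by a direct test in recovery only. An uncalled difference during chilling does not show that the responses were equal. SS2 C went the other way, with lower calls in LTH and none in IR29.

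Leaves were taken from LTH (Li-Jiang-Xin-Tuan-Hei-Gu), a japonica rice that tolerates chilling, and from IR29, an indica rice sensitive to it; the labels name no transgene or mutation in either. Seedlings at the S3 leaf stage stood at 4 °C for 2, 8, 24 or 48 h, or went back to 29 °C for 24 h once the 48 h of chilling were over (recovery), and each genotype had 1 control group kept at 29 °C. The 36 arrays form 12 groups of 3 biological replicates. The methods describe soil plates that held both genotypes as the biological replicates, while the array titles give replicate numbers and name no plate. The question was how the genotypes differ before stress, under chilling stress and after it.

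Starch synthases add glucose from ADP-glucose to growing glucan chains in plastids. SS1 encodes soluble starch synthase I, which lengthens short chains of amylopectin, the branched part of starch. SS2, here the SSII-2 gene, encodes a soluble starch synthase of the class that makes longer amylopectin chains, and the SSII-2 form is known as the one used in leaves. GBSS-I encodes granule-bound starch synthase I, which makes the unbranched amylose and is best known from the endosperm. Leaves store starch by day and degrade it at night, and many genes of starch metabolism follow the clock.

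Values are linear intensities, and each change is a difference of mean log2 intensities with its standard error (SE) from 1 limma model of the 12 groups. A probe set was called where the Benjamini-Hochberg adjusted p over all 57258 probe sets was below 0.05 and the change was at least 2-fold. The 5 comparisons within a genotype share its 3 control arrays. The methods describe control leaves collected at each time, but the labels name 1 control group per genotype and give no time of collection for it. Treatment and time of day therefore cannot be told apart in any comparison with the control. In whole leaves, fewer cells of a type and less RNA per cell cannot be told apart either. Median intensity per array was between 9.81 and 11.16. The 4 leaf mesophyll marker genes that were matched (RBCS, CAB2R, RCA and GLO1) had summed intensities of 17132 to 17911 in LTH controls and 17108 to 19187 in IR29 controls, so leaf genes were bright in both.

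Under chilling stress, calls among the 10 probe sets were all downward. In LTH, 4 of 10 were called lower at 2 h, where 6.62% of all probe sets were. The count was 4 of 10 against 6.5% after 8 h, 4 of 10 against 10.9% after 24 h, and 3 of 10 against 13.1% after 48 h. In IR29, 6 of 10 were called lower at 2 h, where 9.49% of all probe sets were, and 6 of 10 at 8 h, against 7.98%. At 24 h and at 48 h, 5 of 10 were called lower in IR29, against 11.4% and 13.8% of all probe sets. In recovery, 3 of 10 were called lower in LTH, where 1.22% of all probe sets were, and 6 of 10 in IR29, where 11.7% were. No member was called higher in any of these 10 comparisons, where 6.99%, 7.26%, 9.46% and 12.3% of all probe sets were called higher in chilled LTH, 7.05%, 7.24%, 8.54% and 10.6% in chilled IR29 at 2, 8, 24 and 48 h, 1.35% in LTH recovery and 8.94% in IR29 recovery. The median log2 change of the 10 probe sets over the 4 times was -1.01, -0.84, -0.68 and -0.61 for LTH; for IR29 it was -1.29, -1.63, -1.12 and -1.30. Over all probe sets that median was between -0.06 and 0.01. The members' median for recovery was -0.41 in LTH and -1.91 in IR29, beside 0.05 (LTH) and 0.04 (IR29) for all probe sets. Probe sets of 1 gene are repeated measurements of it, so these counts are not counts of genes.

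SS1 was high in the IR29 control alone, and was called lower in every chilled and recovery group of IR29 but in LTH at 2 h only. Its probe set read 101, 66.7 and 45.9 in the 3 LTH controls. After chilling of LTH it read 31.2, 26.5 and 36.8 at 2 h, then 51.3, 50.8 and 113 at 8 h, 34.0, 111 and 54.3 at 24 h, and 59.2, 41.4 and 98.2 at 48 h. In LTH recovery it read 43.2, 80.7 and 79.8. Thus LTH leaves at 2 h lay below all of their controls, and every later LTH group overlapped the control.

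In IR29 controls SS1 read 245, 207 and 245. After chilling of IR29 it read 41.8, 35.1 and 27.9 at 2 h, 66.8, 37.8 and 72.7 at 8 h, 34.6, 45.7 and 63.0 at 24 h, and 59.9, 38.5 and 72.2 at 48 h. In IR29 recovery it read 111, 96.3 and 91.0. No chilled or recovery array of IR29 reached the lowest IR29 control, and the recovery arrays lay above all chilled ones. The IR29 group means were 34.9 ± 6.97 at 2 h and 99.3 ± 10.1 in recovery, against 232 ± 21.7 in the control (SD, n = 3 each).

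In IR29 leaves SS1 fell by 2.75 on the log2 scale at 2 h (SE 0.39, limma adjusted p = 3e-06), that is to 0.149 of the control. It fell by 2.03 at 8 h, by 2.32 at 24 h and by 2.07 at 48 h, with limma adjusted p = 0.000215, 2.5e-05 and 8.5e-05. In IR29 recovery it was still lower, with a log2 change of -1.23 (adjusted p = 0.0168, limma), a call that was lost without IR29 control replicate 1 or 3 or IR29 recovery replicate 3, with adjusted p between 0.0505 and 0.0551. In LTH the 2 h change was -1.11 (adjusted p = 0.0404, limma), and it was not called after leaving out any 1 of LTH control replicates 1 and 2 and the 3 LTH 2 h arrays (adjusted p up to 0.225, log2 changes from -1.39 to -0.83 over the 6 fits). With quantile normalization that change was -0.99, under the 2-fold minimum, and with no intensity trend its adjusted p was 0.0504. Later changes in LTH were -0.02, -0.20 and -0.12 at 8, 24 and 48 h and -0.05 in recovery, none called. The 95% confidence interval at 48 h, from -0.92 to 0.68, does not show that the level stayed the same.

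Markers of other tissues moved beside SS1 in part. The root marker NRT2.3, the only matched gene of the root list, read 11.1 to 18.5 in IR29 at 2 h, against 27.4 to 80.3 in the IR29 control, and was called lower at 2, 24 and 48 h. In IR29 recovery it read 33.4 to 78.8. In IR29 at 8 h, where probe sets of all 3 genes were called lower, the summed intensity of 5 shoot meristem genes was 276 to 291, against 30.2 to 50.4 in the IR29 control, and the homeobox gene OSH71 was called higher (3.14, adjusted p = 0.0204, limma). In LTH at 2 h that sum was 20.5 to 23.5, against 50.6 to 111 in the LTH control, and 1 of the 5, the homeobox gene OSH1, was called lower. Their part in the values of the 3 genes was not tested.

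**Figure D1:**
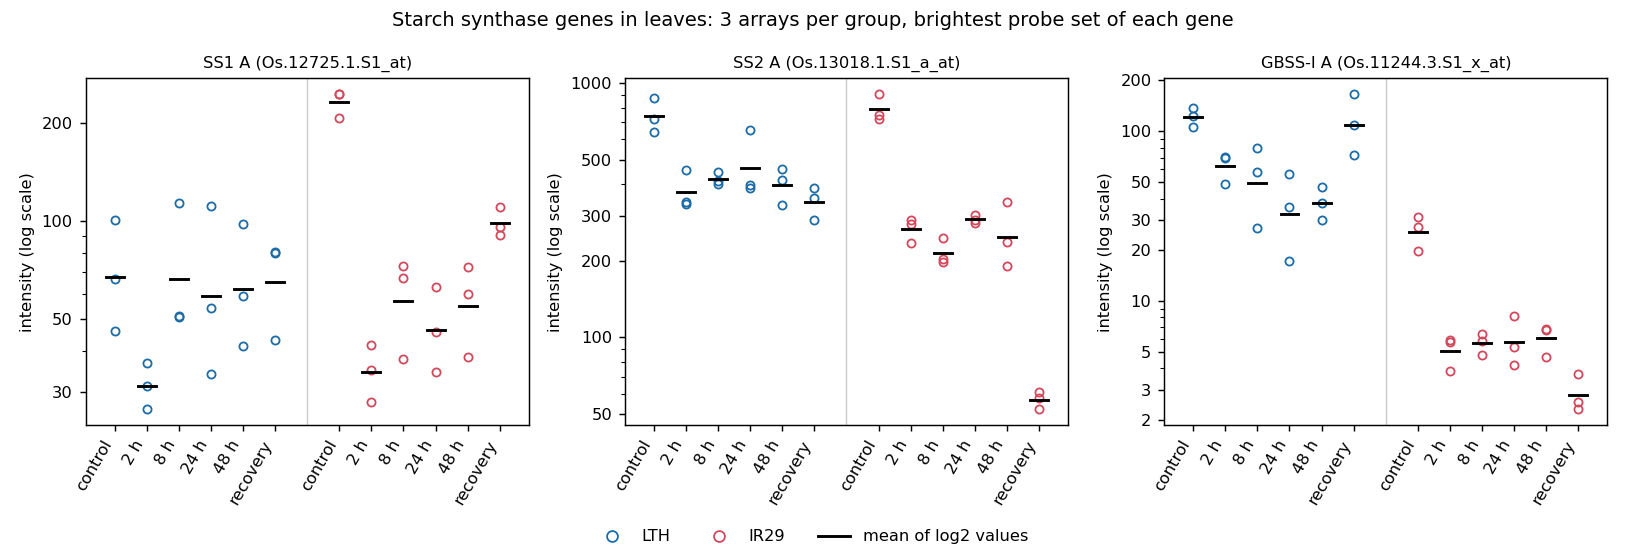
Intensity on a log scale (y axis) of the brightest probe set of SS1, SS2 and GBSS-I in each of the 3 arrays (circles) of the 12 groups (x axis), with LTH in blue and IR29 in red and the mean of the log2 values as a black line. SS1 in IR29 is high in the control only (207 to 245), SS2 in IR29 is lowest in recovery (52.1 to 61.0), and GBSS-I in LTH recovery (72.6 to 165) overlaps the LTH control.

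SS2 was called lower at its brightest probe set in all chilled and recovery groups of IR29, and in LTH in recovery only; its lowest values were in IR29 after the return to 29 °C. SS2 A, whose probes are shared by transcripts of 1 gene according to its suffix, read 641, 871 and 723 in LTH controls. In chilled LTH it read 341, 456 and 335 at 2 h, 402, 449 and 411 at 8 h, 652, 388 and 398 at 24 h, and 416, 460 and 330.1 at 48 h. In LTH recovery it read 388, 290 and 352. All of these groups lay below every LTH control array except that at 24 h, where replicate 1 lay within the control range.

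In IR29 controls SS2 read 746, 723 and 904. In chilled IR29 it read 289, 278 and 235 at 2 h, 198, 247 and 204 at 8 h, 302, 291 and 281 at 24 h, and 238, 339 and 190.1 at 48 h. In IR29 recovery it read 57.8, 61.0 and 52.1. All chilled IR29 arrays lay far below the control range, and the recovery arrays lay below all of the chilled ones.

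In LTH the log2 changes of SS2 A were -0.99, -0.81, -0.67 and -0.89 at 2, 8, 24 and 48 h (SE 0.20 each), with limma adjusted p = 0.000366, 0.00236, 0.00953 and 0.000508. These passed the p threshold but were under 2-fold, so they were not called. Quantile normalization took the 2 h and 8 h changes just past 2-fold, and both were then called. In LTH recovery SS2 was called with a change of -1.12 (adjusted p = 0.000552, limma), a call lost without LTH control replicate 2, where the change was just under 2-fold (adjusted p = 0.00925).

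In IR29 the log2 changes of SS2 A were -1.56, -1.87, -1.44 and -1.66 at 2, 8, 24 and 48 h (SE 0.20 each), with limma adjusted p = 4.1e-07, 2.29e-08, 1.1e-06 and 6.08e-08. In IR29 recovery the change was -3.79 (adjusted p = 8.43e-15, limma), to 57.0 ± 4.47 in recovery, against 791 ± 98.6 in the control (SD, n = 3 each). These 5 calls of SS2 A were kept in every fit that left out 1 array of the groups compared. Leaf genes were lower in that group as well: the summed intensity of the 4 mesophyll markers was 8049 to 10467 in IR29 recovery, against 17108 to 19187 in the IR29 control, and 1 of the 4, CAB2R, was called lower. In LTH recovery the sum was 18616 to 19943. The part of this shift in the SS2 values was not tested.

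Of the other SS2 probe sets, SS2 B followed SS2 A and SS2 C did not. SS2 B had a Pearson correlation of 0.91 with SS2 A over the 12 group means, which share their arrays. It read 31.1 to 40.3 in LTH recovery, against 79.2 to 96.2 in the LTH control. In IR29 recovery it read 11.3 to 18.4, against 81.5 to 111 in the IR29 control, so neither recovery group overlapped its control. Its recovery changes of -1.35 in LTH and -2.60 in IR29 were both called (limma adjusted p = 0.00462 and 2.22e-08). Under chilling it was called lower at 2 and 8 h in LTH (-1.04 and -1.15) and at 2 and 8 h in IR29 (-1.02 and -1.38), and not at 24 or 48 h, where LTH values of up to 91.0 overlapped the control. Of these, the LTH and IR29 2 h calls were lost with quantile normalization and with median centring. The LTH 2 h call was also lost without LTH control replicate 2 or LTH 2 h replicate 3 (adjusted p up to 0.0534), the LTH 8 h call without LTH 8 h replicate 1 (0.0371, under 2-fold) and the IR29 2 h call without IR29 control replicate 3 (0.05).

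SS2 C, whose highest group mean was 30.2, had a correlation of 0.36 with SS2 A. It read 12.8, 9.20 and 10.4 in LTH at 2 h, against 29.8, 30.65 and 30.2 in LTH controls, and was called lower in LTH at 2 h (-1.50), at 24 h (-1.05) and in recovery (-1.18). The 24 h call was lost without LTH 24 h replicate 2 (-0.94) and with quantile normalization (-0.85), and the recovery call without any 1 array other than LTH recovery replicate 2 (adjusted p up to 0.135). It read between 13.3 and 29.4 in all chilled IR29 groups, against 12.6, 14.6 and 15.9 in IR29 controls. None of its IR29 changes, from -0.37 to 0.64, was called, and the chilled IR29 arrays at 8, 24 and 48 h lay above all IR29 controls. For SS2, then, probe sets annotated to the same gene gave falls in IR29 at 2 of 3 and no called fall at the other.

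At its brightest probe set GBSS-I was higher in LTH than in IR29 before stress and fell in both under chilling stress. In recovery it overlapped the control in LTH but not in IR29. GBSS-I A, whose suffix marks probes that can match other sequences as well, read 138, 123 and 105 in LTH controls. In chilled LTH it read 48.7, 70.1 and 69.9 at 2 h, 57.3, 79.5 and 26.9 at 8 h, 56.3, 17.3 and 35.9 at 24 h, and 46.9, 30.1 and 37.9 at 48 h. In LTH recovery it read 165, 72.6 and 109. Every chilled LTH array lay below the lowest LTH control, and the recovery arrays spanned the control range.

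In IR29 controls GBSS-I read 27.3, 19.8 and 31.2. In chilled IR29 it read 5.76, 3.85 and 5.92 at 2 h, 4.82, 6.40 and 5.78 at 8 h, 4.20, 8.18 and 5.37 at 24 h, and 6.88, 6.72 and 4.70 at 48 h. In IR29 recovery it read 2.3, 3.71 and 2.53. No chilled or recovery array of IR29 reached the control range. These values are close to the bottom of the scale, since 20% of all deposited values are below 3.16, and changes measured there carry little information on size.

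In LTH the log2 changes of GBSS-I A were -0.97, -1.29, -1.89 and -1.69 at 2, 8, 24 and 48 h (SE 0.38 each), with limma adjusted p = 0.0735, 0.0139, 0.000263 and 0.000734. The change at 2 h was not called. The call at 8 h was lost without LTH control replicate 1 or LTH 8 h replicate 3, with adjusted p of 0.0601 to 0.145. In LTH recovery the change was -0.15 (adjusted p = 0.941, limma; 95% confidence interval -0.93 to 0.63), so a fall of nearly 2-fold is within the interval. Fitting only the groups compared also lost the 8 h call (0.0538).

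Marker genes moved in the chilled groups as well. Of the 5 endosperm genes, the glutelin gene GLUB5 was called lower in LTH at 8, 24 and 48 h (-1.49, -2.73 and -2.95), while GLUA1 was called higher at 2 and 8 h (1.39 and 1.04). GLUA1 was close to the bottom of the scale, with group means from 2.05 in the IR29 control to 6.25 in LTH at 2 h. The endosperm sum was 110 to 146 in LTH at 48 h, against 158 to 174 in the LTH control. The mesophyll gene CAB2R was called lower in LTH at 24 and 48 h (-2.06 and -2.77), and the mesophyll sum was 10425 to 10837 in LTH at 48 h, against 17132 to 17911 in the LTH control. In chilled IR29, GLUB5 was called lower at 24 and 48 h (-1.69 and -1.93), GLUA1 higher at 2 and 24 h (1.24 and 1.07) and CAB2R lower at 48 h (-1.39). Their part in the GBSS-I values was not tested.

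In IR29 the log2 changes of GBSS-I A were -2.33, -2.19, -2.17 and -2.09 at the 4 times, and limma adjusted p was between 2.44e-05 and 6.5e-05. In IR29 recovery the change was -3.20 (adjusted p = 9.19e-08, limma), to 2.85 ± 0.756 in recovery, against 26.1 ± 5.83 in the control (SD, n = 3 each). With all values floored at 3.16 that change was -2.94. The summed intensity of 5 glutelin genes, markers of seed endosperm, was 81.5 to 101 in IR29 recovery, against 184 to 237 in the IR29 control, and 2 of the 5 were called lower there. In LTH recovery that sum was 134 to 167, against 158 to 174 in LTH controls. Their part in the GBSS-I values was not tested.

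Of the 6 GBSS-I probe sets, 3 followed this course and 3 did not. GBSS-I B and GBSS-I C had correlations of 0.99 and 0.96 with GBSS-I A over the 12 group means. GBSS-I B carries the same suffix as GBSS-I A, and whether the probes of these 2 match shared sequences was not tested. In LTH they were called lower at 8, 24 and 48 h, by -1.37, -1.95 and -1.89 for GBSS-I B and by -2.23, -1.69 and -2.02 for GBSS-I C. At 2 h in LTH, GBSS-I C was called (-2.27, adjusted p = 0.0035, limma) while GBSS-I B was not (-1.05, adjusted p = 0.101). Each was called lower in all 5 IR29 comparisons, with changes from -3.07 to -2.32 for GBSS-I B and from -2.96 to -2.23 for GBSS-I C. In LTH recovery GBSS-I C read 97.0, 40.8 and 66.7, against 85.8, 81.1 and 70.8 in the LTH control. Its chilled IR29 arrays read 1.70 to 5.28, against 15.9 to 23.3 in the IR29 control. For GBSS-I C the LTH 8 h call was lost without LTH 8 h replicate 3 and when only the groups compared were fitted (0.0516), the 48 h call without LTH 48 h replicate 2, and the 24 h call without LTH control replicate 1 or 2 or LTH 24 h replicate 2, with adjusted p from 0.0576 to 0.094. For GBSS-I B the LTH 8 h call was lost without LTH control replicate 1 or 2 or LTH 8 h replicate 3 (adjusted p from 0.0519 to 0.152).

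The remaining probe sets of GBSS-I, GBSS-I D, E and F, were called in none of the 16 comparisons. Ranked by mean log2 value, D and E stood at percentiles 57.3 and 58, above B (54.8) and C (51.1) and below A (60.5). F stood at 32.7. GBSS-I D read 4.47 to 34.4 over all 36 arrays, GBSS-I E 10.2 to 25.4, and GBSS-I F from 1 to 10.96. Their correlations with GBSS-I A over the 12 group means were 0.20, 0.11 and -0.25. Of the 10 members, 7 reached a mean of 30 in at least 1 group, and these 3 did not. GBSS-I A, B and C reached it in LTH groups only, and SS2 C in the LTH control only. A probe set with a level course passes such a cut less easily, so the cut is no evidence against D, E and F. In recovery the LTH change minus the IR29 change was 0.58 at D, -0.80 at E and -0.85 at F, none called.

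**Figure D2:**
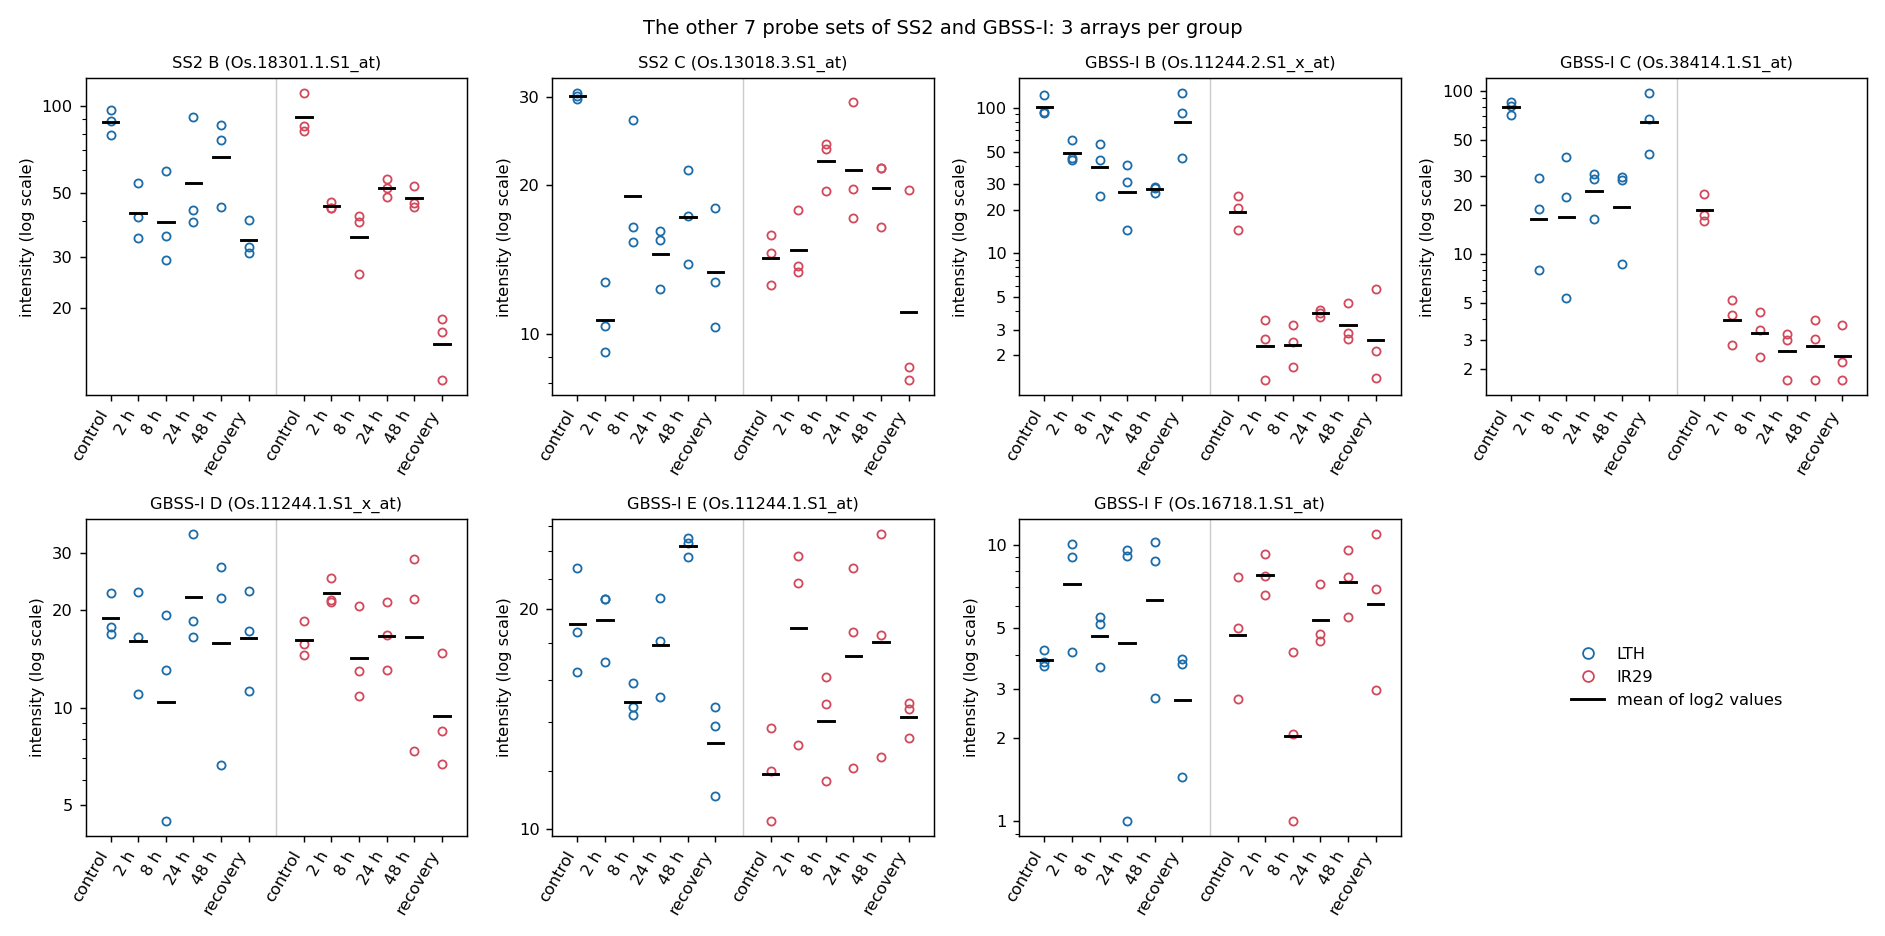
Intensity on a log scale (y axis, a different range in each panel) of the 7 probe sets of SS2 and GBSS-I that are not the brightest of their gene, in each of the 3 arrays (circles) of the 12 groups (x axis), with LTH in blue, IR29 in red and the mean of the log2 values as a black line. SS2 B, GBSS-I B and GBSS-I C follow the brightest probe set of their gene, SS2 C is highest in LTH controls (29.8 to 30.65), and GBSS-I D, E and F in the lower row show no called change.

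Before stress the genotypes differed in opposite directions for SS1 and for GBSS-I at its brightest probe set. SS1 was 71.2 ± 27.8 in LTH controls and 232 ± 21.7 in IR29 controls (SD, n = 3 each), a log2 difference of -1.78, LTH minus IR29 (SE 0.39, limma adjusted p = 0.00179). GBSS-I was 122 ± 16.2 in LTH controls and 26.1 ± 5.83 in IR29 controls (SD, n = 3 each), a log2 difference of 2.24 (SE 0.38, limma adjusted p = 7.3e-05). GBSS-I B and C gave 2.39 and 2.09, both called, the call at GBSS-I C being lost without LTH control replicate 1 or IR29 control replicate 2. GBSS-I D, E and F gave 0.23, 0.68 and -0.30, none called (limma adjusted p = 0.889, 0.11 and 0.887). For SS2 the difference was -0.09 at SS2 A (adjusted p = 0.883, limma, 95% confidence interval -0.49 to 0.31) and -0.06 at SS2 B. SS2 C gave 1.08 and was called (limma adjusted p = 0.0136). That call was lost without IR29 control replicate 1 (0.0691) and with quantile normalization (0.0545). In all, 4 of 10 members were called higher in LTH controls, where 4.07% of all probe sets were, and 1 was called lower, where 3.44% were. Whether the probes match the sequences of both genotypes equally was not tested.

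How far the responses of the genotypes differed was tested as the LTH change minus the IR29 change. For SS1 it was 1.64, 2.01, 2.12 and 1.95 at 2, 8, 24 and 48 h and 1.18 in recovery (SE 0.55 each), with limma adjusted p = 0.138, 0.0374, 0.0144, 0.0191 and 0.205. The fall of SS1 in IR29 at 8, 24 and 48 h thus exceeded its change in LTH, where no change was called at these times. The difference was not called at 2 h or in recovery. The 8 h call was kept without LTH control replicate 1, LTH 8 h replicate 1 or 2 or IR29 8 h replicate 3 and lost without any 1 of the other 8 arrays compared (adjusted p up to 0.126) or with no intensity trend (0.0544), the 24 h call without LTH control replicate 3 (0.0566), and the 48 h call without LTH control replicate 3, LTH 48 h replicate 3 or IR29 48 h replicate 2 (0.0537 to 0.0697). With the genotypes at 71.2 and 232 in the controls and all chilled arrays between 26.5 and 113, the larger response is that of the genotype with the higher control.

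For SS2 the difference in response in recovery was 2.67 at SS2 A (SE 0.28, limma adjusted p = 6.22e-08). This call was kept in every fit that left out 1 array of the groups compared. At 8 h it was 1.06 (adjusted p = 0.0272, limma), lost without LTH control replicate 1 or 3, LTH 8 h replicate 2, IR29 control replicate 3 or IR29 8 h replicate 1 or 3 (0.0629 to 0.0966), with quantile normalization (0.92, 0.0808) or with no intensity trend (0.0546), and at 2, 24 and 48 h it was 0.58, 0.77 and 0.77 and not called (adjusted p = 0.373, 0.0941 and 0.0744). SS2 B gave 1.25 in recovery (adjusted p = 0.044), lost without any 1 of the arrays compared except IR29 recovery replicate 3 (0.0527 to 0.143). It was also lost with quantile normalization (1.10, adjusted p = 0.127), median centring (0.0527) and no intensity trend (0.0526). SS2 C went the other way, with -1.55, -1.64 and -1.28 called at 2, 24 and 48 h. The call at 2 h was lost without any 1 array compared except LTH 2 h replicate 1 (adjusted p 0.0529 to 0.129), that at 48 h without any 1 except replicate 2 of LTH 48 h or of IR29 48 h (0.0608 to 0.105), and that at 24 h was kept in every such fit. With quantile normalization the 2 h and 48 h calls were lost as well (0.0745 and 0.0842).

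For GBSS-I the difference was called in recovery at 3 of the 6 probe sets: 3.05 at GBSS-I A (SE 0.54, limma adjusted p = 0.000182), 2.58 at GBSS-I B (adjusted p = 0.006) and 2.66 at GBSS-I C (adjusted p = 0.027). The first 2 of these calls were kept in every fit without 1 array of the groups compared. The last was lost without replicate 3 of either control or replicate 1 or 3 of either recovery group (0.0549 to 0.0875). With all values floored at 3.16 it was lost as well (2.18, adjusted p = 0.0529). During chilling no GBSS-I difference was called in the model of the 12 groups. At GBSS-I A it was 1.37, 0.90, 0.28 and 0.41 at 2, 8, 24 and 48 h, with a 95% confidence interval of -0.70 to 1.51 at 48 h. At 2 h GBSS-I B gave 2.02 (limma adjusted p = 0.103, 95% confidence interval 0.73 to 3.32). Fitting only the groups compared made this a call (limma adjusted p = 0.0474). GBSS-I C, D, E and F gave -0.04, -0.71, -0.64 and 0.19 at 2 h, none called.

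Counted over the 10 members, the numbers called above 0 at 2, 8, 24 and 48 h were 0, 2, 1 and 1, where 1.19%, 2.26%, 4.02% and 5.89% of all probe sets were. The numbers below 0 at these times were 1, 0, 1 and 1, where 0.402%, 0.589%, 2.09% and 2.82% were. In recovery 5 of 10 were called above 0, where 6% of all probe sets were, and none below, where 3.02% were. Of the 4 mesophyll markers, 2 were also called above 0 in recovery (RBCS, 1.15, and CAB2R, 1.64), as were 2 of the 5 endosperm markers (GLUA2, 1.08, and GLUB5, 2.20). CAB2R was called below 0 at 24 and 48 h (-1.45 and -1.39), where SS1 was called above 0. The part of these markers in the members' values was not tested.

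**Figure D3:**
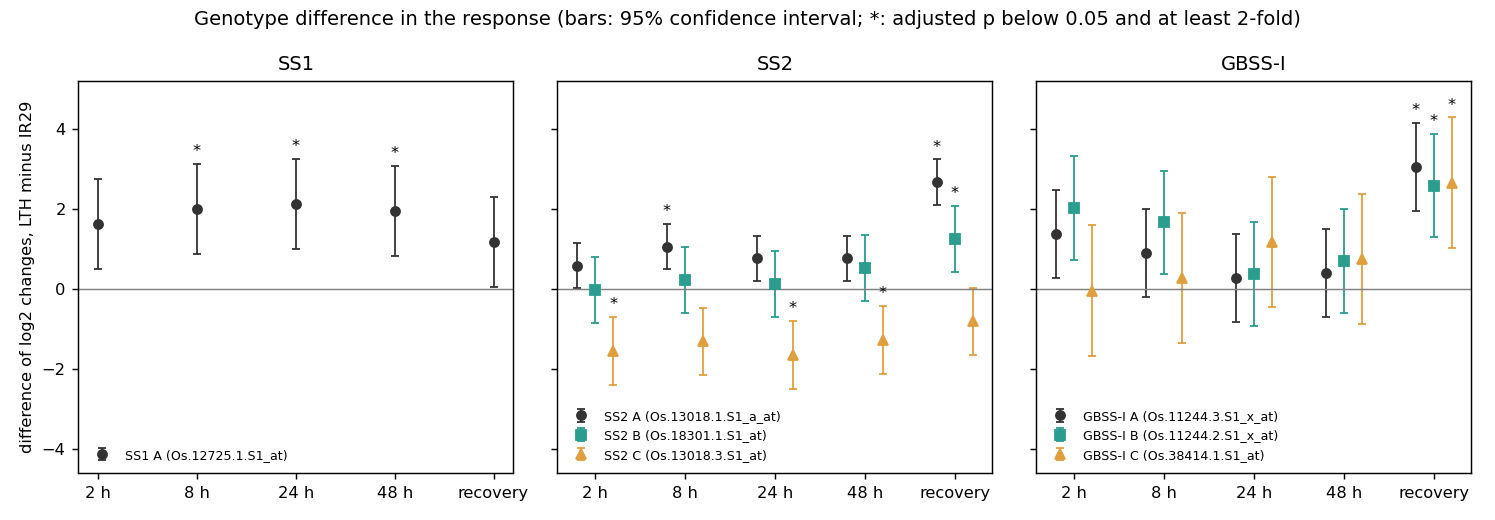
Difference of log2 changes, LTH minus IR29 (y axis), at each chilling time and in recovery (x axis), for the 7 probe sets with a mean of at least 30 in some group. SS1, SS2 A to C and GBSS-I A to C are shown, while GBSS-I D, E and F, which had no called difference, are not. Points are the limma estimates, bars their 95% confidence intervals, and stars mark called differences. SS1 lies at 1.64 to 2.12 during chilling, SS2 at 2.67 and GBSS-I at 3.05 in recovery at probe sets A, and SS2 C lies below 0 throughout.

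In the order of mean log2 levels over the 12 groups, SS1 had 1 clear step. The IR29 control stood first and did not overlap the next group, IR29 recovery (91.0 to 111). From there to the lowest group, LTH at 2 h (26.5 to 36.8), each group's range overlapped that of the next. For SS2 A the IR29 and LTH controls led. LTH at 24, 8, 48 and 2 h, LTH recovery and IR29 at 24, 2, 48 and 8 h followed in this order, each overlapping the next, and IR29 recovery stood apart at the bottom. For GBSS-I A the LTH control and LTH recovery led and overlapped each other. LTH at 2, 8, 48 and 24 h and the IR29 control came next as a run of overlapping neighbours. LTH recovery (72.6 to 165) lay above the LTH 2 h arrays, but its lowest array was below the highest at 8 h (79.5). The chilled IR29 groups overlapped each other below that, without overlap with the IR29 control, and IR29 recovery was lowest, again without overlap.

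Over the 12 group means, SS2 A and GBSS-I A had a Pearson correlation of 0.73, against 0.14 for SS1 and SS2 and 0.05 for SS1 and GBSS-I. Among 19652 probe sets of a single other gene that were not dim, the pattern most like that of SS1 was LOC4351385 (0.95), followed by LOC4329059 (0.86). For SS2 it was the gene listed as FBPase, a name used for fructose-1,6-bisphosphatase of the sugar phosphate pathway (0.99, and 0.98 at its other probe set), with LOC4333209 between (0.98). For GBSS-I it was LOC4327742 (0.98) and LOC4350599 (0.98). These are descriptions over 12 groups that share their arrays.

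Among the other genes of starch and sucrose metabolism, 16 were matched by symbol, each taken at its brightest probe set. During chilling they gave 3 lower and 6 higher calls in LTH over the 4 times, each time counting the 16 genes, and 5 lower and 8 higher in IR29. Of all probe sets, 6.5% to 13.1% per time were lower and 6.99% to 12.3% higher in LTH. In IR29 these shares were 7.98% to 13.8% and 7.05% to 10.6%. In recovery 1 was called higher and none lower in LTH, where 1.35% and 1.22% of all probe sets were. In IR29 recovery 3 were called higher and 5 lower, where 8.94% and 11.7% were. The counts were not tested against these shares. Not every gene listed fell with SS1, SS2 and GBSS-I.

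Of the other starch synthases, SSII-3 (also ALK, the form best known from endosperm) was called in no comparison, and SSII-1 was called lower in IR29 recovery only (-1.63, adjusted p = 1.38e-06, limma), with a genotype difference there of 1.17 (adjusted p = 0.0159). That difference was lost without LTH control replicate 1, LTH recovery replicate 2 or replicate 3 of the IR29 control or of IR29 recovery (0.0509 to 0.0706), and with quantile normalization (0.92, under 2-fold). AGPS2, a small subunit of ADP-glucose pyrophosphorylase, which makes the substrate of the starch synthases, read 131 to 171 in IR29 recovery, against 947 to 1054 in the IR29 control. This change of -2.70 was called, as was its genotype difference of 2.07 (limma adjusted p = 1.23e-11 and 5.94e-06), and in LTH recovery it was -0.63 and not called. At 2 h AGPS2 was called lower in IR29 (-1.07), a call lost without IR29 2 h replicate 2 or 3, where the change was under 2-fold (-0.96 and -0.88). The branching enzyme gene SBE1 was called in none of these comparisons.

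Of 3 genes of starch breakdown, DPE2, a disproportionating enzyme that handles maltose in the cytosol, was called lower in IR29 at each chilling time, changing by -2.24, -2.02, -1.68 and -1.61. It read 333 to 464 in IR29 at 2 h, against 1680 to 1826 in the IR29 control, and was back at 1951 to 2675 in IR29 recovery. In LTH it was not called at any time, and the genotype difference was called at each chilling time (1.74, 1.39, 1.47 and 1.48). DPE1, the plastid form, was called lower in IR29 recovery only (-1.69), a call lost without IR29 control replicate 2 or any 1 IR29 recovery array (adjusted p 0.0591 to 0.172), and PWD, a glucan phosphorylating enzyme, in no comparison.

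Genes of sucrose synthesis and cleavage contributed all of the higher calls. The sucrose-phosphate synthase gene SPS2 rose in both genotypes, by log2 changes of 2.94, 2.92, 2.97 and 3.56 in LTH and 3.9, 2.86, 3.17 and 3.51 in IR29 at the 4 times and 1.59 in IR29 recovery, though it read only 3.44 to 6.77 in LTH controls and 2.05 to 3.65 in IR29 controls. The sucrose synthase gene SUS4 was called higher in 3 LTH comparisons, 2 h (1.06), 8 h (1.05) and recovery (1.28), as well as in all 5 of IR29 (1.25 to 1.67). Its LTH calls at 2 and 8 h fell under 2-fold without LTH control replicate 2 (0.91 and 0.90), and that at 2 h without LTH 2 h replicate 3. SUS1 was called lower in LTH at 24 h (-2.77), SUS2 in LTH at 24 and 48 h (-1.08 and -1.61), and SUS5 and SUS6 in IR29 recovery (-1.73 and -2.84), where SPS8 was called higher (1.07). Without LTH 24 h replicate 1 or 3 neither 24 h call was made (adjusted p 0.156 and 0.209 for SUS1, 0.0588 and 0.11 for SUS2), and that of SUS1 was also lost without LTH control replicate 1 or 2. Both 24 h calls were lost when only the groups compared were fitted (0.134 for SUS1 and 0.126 for SUS2). The SUS5 call was lost without IR29 control replicate 2 or IR29 recovery replicate 2 or 3 (0.0752 to 0.0874).

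**Figure D4:**
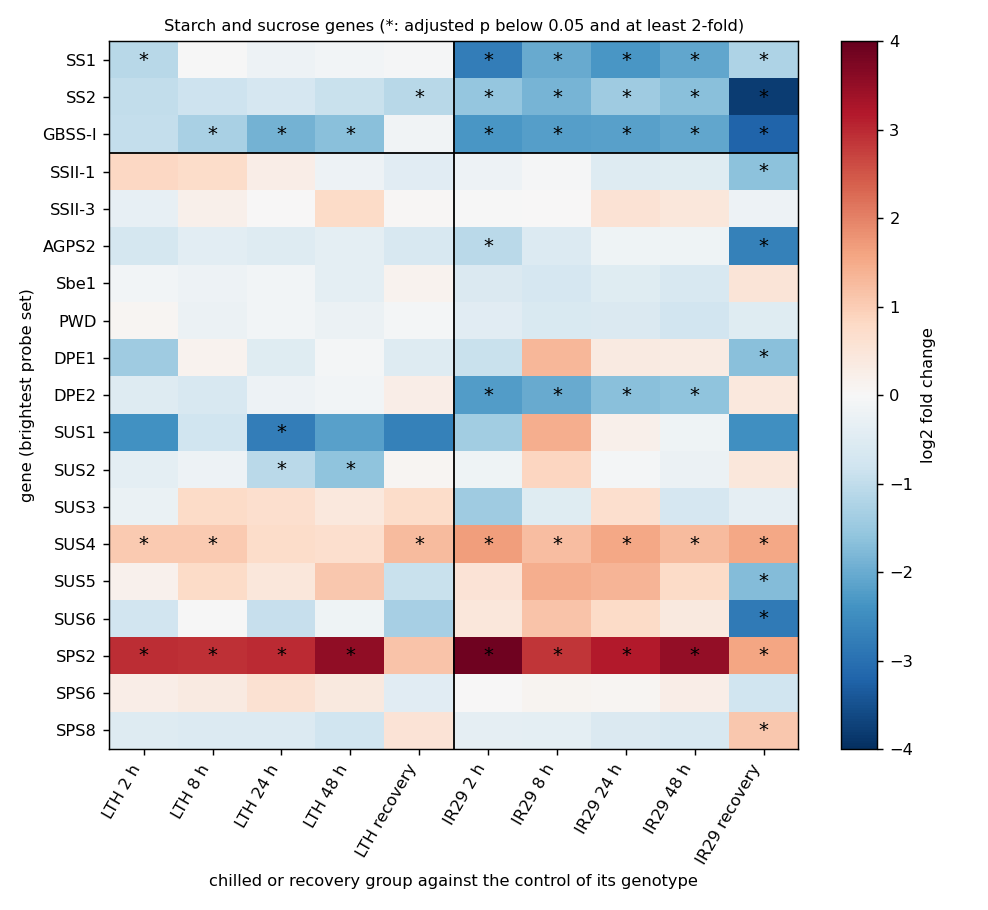
Log2 fold change (colour, red higher and blue lower) of SS1, SS2, GBSS-I (top 3 rows) and 16 other genes of starch and sucrose metabolism (rows, brightest probe set of each) for each chilled and each recovery group, set against its genotype's control (columns, LTH left and IR29 right). Stars mark calls. The top 3 rows are blue in all IR29 columns, SPS2 is red in all chilling columns, and AGPS2 (-2.70) and SSII-1 (-1.63) are blue with a star in IR29 recovery.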

How the data were processed

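The deposited values are linear intensities, 1 per probe set and array, on Affymetrix rice genome arrays; the authors extracted them with GCOS and normalized them with dChip. Per the labels, the 36 arrays are 12 groups of 3 biological replicates. Log2 was taken after raising values under 1 to 1, with no further normalization. All 57258 probe sets entered 1 model of the 12 groups in limma 3.58.1 under R 4.3.3 (eBayes with an intensity trend), and 16 contrasts were tested, each adjusted over all probe sets by Benjamini-Hochberg. The steps were tested on simulated data. The number of arrays limits the precision, and the files give no background. Probe sets were named through the platform annotation and the rice RefSeq gene table: 22436 had 1 gene, 95 several and 34727 none. The members and the lists of starch, sucrose and marker genes were chosen with earlier results of these data known. The lists were matched by symbol, and SPS1 and a second SPS2, which are solanesyl diphosphate synthases by synonym, were taken out afterwards. The genes named are all members, the other list genes with calls, those most like each member in pattern, and SSII-3, SBE1 and PWD, which had no call. Alternatives were quantile normalization, median centring, a higher floor (the 20th percentile of all values), a filter that drops the dimmest 40% of probe sets, no intensity trend, no fold minimum, a fold limit on the 90% confidence interval, a fit of only the groups compared, the methods' t-test with and without adjustment, any probe set of a gene, a replicate block and leaving out each array. Using 1 probe set per gene was added after seeing the data. Sequences are not used here.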

Additional observations from a re-analysis of the deposited data

Results flagged for a closer look

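These results stood out because the change in LTH and the change in IR29 differed by the test of the difference itself (limma, adjusted p below 0.05 over all probe sets and at least 2-fold). Each value is the log2 change in LTH minus that in IR29. For SS1 the difference was 2.01 after 8 h, 2.12 after 24 h and 1.95 after 48 h. For SS2 it was 1.06 at 8 h and 2.67 in recovery at SS2 A, and 1.25 in recovery at SS2 B. At SS2 C it had the opposite sign, with -1.55 after 2 h, -1.64 after 24 h and -1.28 after 48 h. For GBSS-I it was called in recovery only, with 3.05 at GBSS-I A, 2.58 at GBSS-I B and 2.66 at GBSS-I C. Of these 12 calls, 4 were kept in every fit that left out 1 array of the groups compared. They were SS2 in recovery at SS2 A and at 24 h at SS2 C, and GBSS-I in recovery at GBSS-I A and GBSS-I B. The fits that lost the others are given above. The difference between the probe sets of SS2 was not tested.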

How the results depend on the processing

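The log2 changes and differences of SS1, SS2 A and GBSS-I A were recomputed under each alternative, the t-test for changes against control only. Of these values 557 kept their side of the threshold, 23 lost the call and 8 gained one. None changed direction where either fit made a call, and changes of direction between uncalled values were not counted. Among members, chilled LTH gave 15 lower calls, against 7 with the lower limit of the 90% confidence interval at 2-fold or the methods' t-test after Benjamini-Hochberg adjustment, and 4 with 1 probe set per gene. LTH recovery gave 3, against 0, 0 and 1 under these. With 1 probe set per gene, lower calls were 12 in chilled IR29 and 3 in IR29 recovery, 1 was higher in LTH than IR29 controls, and 2 genotype differences were above 0 in recovery. Chilling gave 4 differences above 0 (2 with no intensity trend) and 3 below (1 with quantile normalization, 0 with the 90% limit or 1 probe set per gene).

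Leaving out 1 array, lower calls in LTH recovery ranged from 1 (without LTH control replicate 2) to 3. Differences above 0 ranged from 0 (without LTH control replicate 3) to 4 in chilling and from 3 (without replicate 3 of either control, LTH recovery replicate 1 or 3 or IR29 recovery replicate 1) to 4 in recovery, against 5 with all arrays, those below 0 in chilling from 1 (without any 1 of 13 arrays, each of the 6 controls among them) to 4. Each call was followed only in fits without 1 array of the groups compared, unlike the counts above. Of the members' calls, 26 of 28 in IR29 and 7 of 18 in LTH were kept in every such fit.

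Among the other starch and sucrose genes, lower calls in chilled LTH were 5 with any probe set of a gene, 11 with no fold minimum, and 1 (without LTH 24 h replicate 1 or 3) to 8 (without LTH 24 h replicate 2). With no fold minimum there were 13 higher calls in chilled LTH and 17 lower in chilled IR29. Higher calls in LTH recovery were 2 with the higher floor, the filter or no fold minimum, 0 with the 90% limit or the adjusted t-test, and 1 to 2 without 1 array (2 without replicate 2 of LTH control or LTH recovery). Lower calls there were 1 with the 90% limit, the fit of only the groups compared or the unadjusted t-test, and 0 to 1 without 1 array (1 without LTH recovery replicate 2). Lower calls in IR29 recovery were 3 with the 90% limit and 3 to 6 without 1 array (3 without IR29 control replicate 2 or IR29 recovery replicate 2 or 3). The cause of these shifts was not tested.

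Whether the replicate numbers pair the arrays is not settled by the values. Deviations of same-numbered arrays had a median correlation of 0.00155, against 0.0076 for other pairs from different groups. Of the same-numbered pairs, 64 of 198 were over 0.1, against 104 of 396 others. With 3 numbers to choose from, 17 of 36 arrays matched their own number best. With the replicate block the members' counts were the same (15 and 22 lower calls in chilled LTH and IR29, 3 and 6 in recovery), and no call of a member changed. Signal over background is not given by the files, which limits what can be said of GBSS-I in IR29.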
